A study of Mus musculus with 3 samples.

Results

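Of 13500 open chromatin windows listed for the apical part of the mouse first molar, 1450 (10.7%) lay next to more than 1 protein-coding gene. A window was counted as shared when its midpoint lay within 1 kb of an end of 2 or more different protein-coding genes in the RefSeq annotation of GRCm38. The 7628 windows near an end of exactly 1 such gene, called single windows, served as the comparison, and the other 4422 windows lay near no such end. Shared windows thus made up 16.0% of the 9078 windows near a gene end. Most of them, 1421, had 2 genes, 28 had 3 genes, and 1 had 24 genes. They belonged to 1436 different sets of genes, 14 of which had 2 windows each, so nearly every window stood for its own gene pair.

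The windows came from ATAC-seq, in which a transposase cuts DNA that is not packed around nucleosomes. There were 2 control libraries from Arid1a fl/fl mice and 1 mutant library from Gli1-CreER;Arid1a fl/fl mice, all on the C57BL/6 strain. All animals carried the floxed Arid1a allele, and the labels give the same tamoxifen injection for every library, 1.5 mg per 10 g body weight at postnatal day 3.5, with molars taken at postnatal day 7.5. Each library was made from 5000 cells of the apical part of the tooth, freed with collagenase. The Cre acts only in cells that express Gli1 and their descendants, so a mutant library can also hold cells with the gene intact. The deposited windows carry no value per library, so control and mutant were not compared, and the depth of each library is unknown. The sources used here do not give how the windows were selected.

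Genes whose starts lie back to back on opposite strands often use a single stretch of regulatory DNA between them, called a bidirectional promoter. Such stretches are typically CpG islands without a TATA box, and they are known above all from housekeeping genes, among them genes of DNA repair, mitochondria and the cell cycle. Genes can also follow each other closely on the same strand, so that the finish of one lies beside the start of the next. Plagl1 (also called Zac1) is a zinc finger transcription factor that arrests the cell cycle and binds G-rich DNA. The deposited annotation marks matches to its motif in each window.

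The stretches between the starts of 4 divergent pairs show what such a shared stretch looks like, printed from the RefSeq promoter table (GRCm38.p6, 5′ to 3′ on the plus strand). The table held the whole stretch for 7 of the pairs considered. The 4 shown were picked after their bases were seen, to show CCAAT boxes and Plagl1 motif sites. They include both pairs with a deposited site in the stretch. Of the others, Ankrd49/Mre11a and Brca1/Nbr1 held CCAAT boxes and no deposited site, and Psmd13/Sirt3 held neither. Atm and Npat, a DNA damage kinase and an activator of histone genes, lie at chr9:53536829-53536888. Mrps12 and Sars2, a protein of the mitochondrial ribosome and the mitochondrial seryl-tRNA synthetase, lie at chr7:28741822-28741956. Ddb1 and Tkfc, a DNA damage-binding protein and a triose kinase, lie at chr19:10605483-10605567. Psmb9 and Tap1, a subunit of the immunoproteasome and a peptide transporter of antigen presentation, lie at chr17:34187331-34187555. Capitals mark CCAAT boxes (CCAAT, or ATTGG for the other strand) and deposited Plagl1 motif sites, which are the runs of 10 capitals. CCAAT boxes were marked along the whole stretch, but sites were deposited only within windows. Bases outside the window were thus not searched for sites and can hold unmarked matches. This applies to all of the Atm/Npat stretch and to part of those of Ddb1/Tkfc and Psmb9/Tap1.
Atm/Npat: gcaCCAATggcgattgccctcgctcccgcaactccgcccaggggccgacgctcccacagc
Mrps12/Sars2: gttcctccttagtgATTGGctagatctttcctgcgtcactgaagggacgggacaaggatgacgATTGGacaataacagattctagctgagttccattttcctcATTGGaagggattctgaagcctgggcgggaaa
Ddb1/Tkfc: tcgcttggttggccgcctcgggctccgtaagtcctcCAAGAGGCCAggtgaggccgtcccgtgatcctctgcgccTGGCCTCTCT
Psmb9/Tap1: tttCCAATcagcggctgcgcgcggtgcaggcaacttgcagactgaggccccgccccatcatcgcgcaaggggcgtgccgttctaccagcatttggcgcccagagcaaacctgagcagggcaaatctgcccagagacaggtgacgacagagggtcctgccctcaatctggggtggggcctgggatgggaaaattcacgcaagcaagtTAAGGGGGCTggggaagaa
The stretches range from 60 bp in Atm/Npat to 225 bp in Psmb9/Tap1. Their GC content differs widely, from 48.1% in Mrps12/Sars2, which holds 3 CCAAT boxes, to 71.7% in Atm/Npat, which holds 1. Between Ddb1 and Tkfc lie 2 of the 4 Plagl1 motif sites of their window, and between Psmb9 and Tap1 lies the only site of theirs. The open window did not always lie on the stretch itself. It covered the whole stretch for Mrps12/Sars2, part of it for Ddb1/Tkfc and Psmb9/Tap1, and lay wholly on the Npat side for Atm/Npat.

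The promoter table, which gives the strand, held 17492 of the 21887 protein-coding genes (79.9%). Among the 1086 two-gene windows with both strands known, 74.9% lay near 2 starts on opposite strands, an arrangement called start to start here. In 520 of these windows the starts lay apart, and in 293 the genes overlapped at their starts, so that each began inside the other. In 227 windows the start of a gene lay beside the finish of another on the same strand, in 19 beside a finish on the opposite strand, and in 23 beside a start on the same strand. Only 4 windows lay between finishes. The other 335 two-gene windows had a gene whose strand was not in the table.

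The rule admits only gaps of up to 2 kb, and within that limit the gaps between divergent starts were mostly short. Where the starts lay apart, the median gap was 98 bp, the middle 50% of gaps ran from 44.75 to 210 bp, and 384 of 520 windows (73.8%) had a gap of at most 200 bp. The window's midpoint lay between the starts in 184 windows (35.4%) and within 100 bp of the centre of the gap in 286. The median distance of the midpoint to that centre was 88.75 bp, so most midpoints fell beside a narrow gap and not inside it. Where the starts overlapped, the overlap had a median of 260 bp, with a middle 50% from 85 to 521 bp. Over all shared windows, the nearest gene end lay at a median of 86.5 bp from the midpoint and the second gene's end at a median of 247 bp. The rule itself selects on these distances, and the nearest of several ends is nearer by construction than a single end (median 141 bp in single windows). The 201 bp window itself covered an end of 2 genes in 255 of the 1450 (17.6%). At the edge of the rule, 34 shared windows had their second gene end at over 950 bp, and 24 further windows would be shared at 1050 bp.

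**Figure D1:**
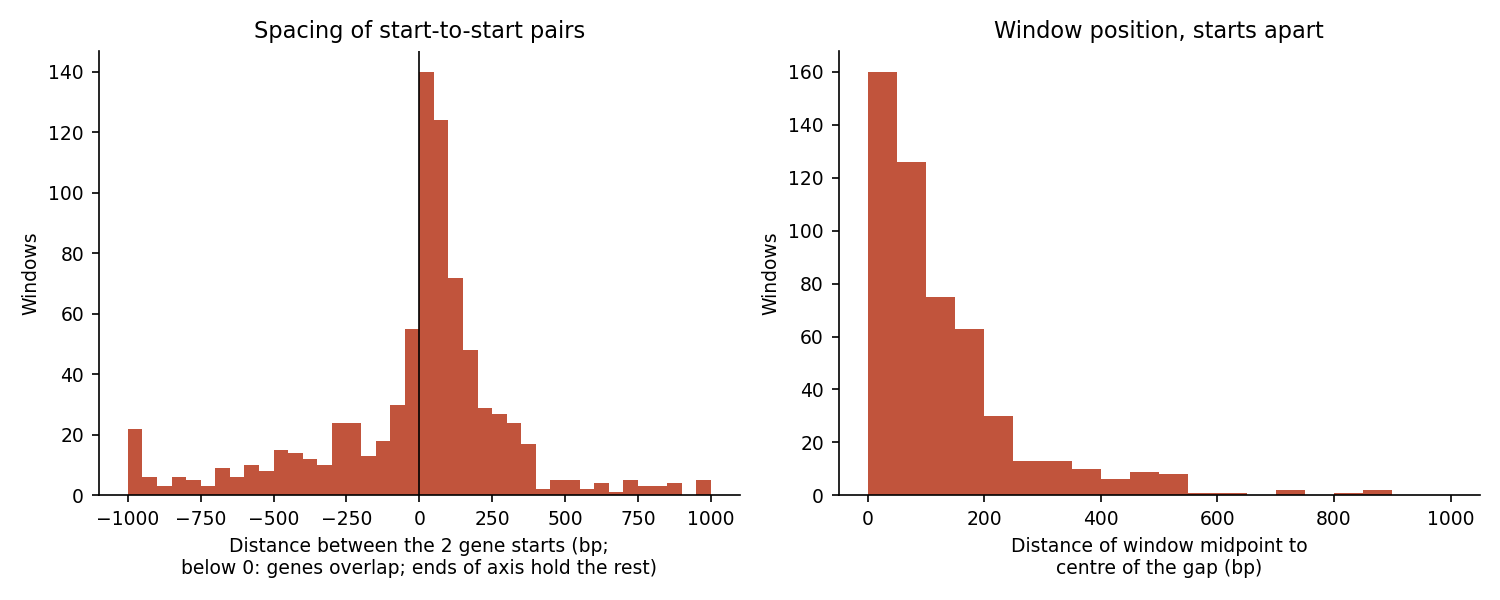
Left, distance in bp between the starts of the 2 genes for the 813 start-to-start windows, with overlapping genes below 0 and the bins at either end holding all larger distances. Right, distance in bp of the window midpoint to the centre of the gap for the 520 windows whose starts lie apart: the gaps pile up just above 0, with a median of 98 bp, and the midpoints lie at a median of 88.75 bp from the centre.

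Several textbook pairs of back-to-back genes were among the shared windows. Of 28 known gene pairs listed, 27 had both genes in the table and 18 had a shared window. Of all genes with an end of another gene within 1 kb, 51.2% had a shared window, a share of single genes and not of pairs. In the listed pairs Tbp/Psmb1, Evc/Evc2, Col4a5/Col4a6 and Bcs1l/Zfand2b the nearest ends were over 1 kb apart. Bcs1l and Zfand2b lay 576203 bp apart and are not back to back. Hspd1 and Hspe1, the mitochondrial chaperonin and its co-chaperonin, overlapped by 96 bp, and their window (chr1:55087916-55088116) had a GC content of 73.1% and no Plagl1 motif site. Col4a1 and Col4a2, which encode the paired chains of basement membrane collagen, overlapped by 85 bp and had the same GC content of 73.1%. Surf1 and Surf2 of the surfeit housekeeping cluster overlapped by 239 bp, at a GC content of 61.2%. Paics and Ppat, both enzymes of purine synthesis, overlapped by 277 bp with a window of 64.2% GC and 2 sites. Gart, another purine enzyme, lay 851 bp from Son, a splicing cofactor, with a window of 56.2% GC and 2 sites. At the AT-rich end stood Mrps12/Sars2, whose window had a GC content of 49.3% and no site. Of these 18 known pairs, 4 had a site, where 32.3% of all shared windows had one. Besides Paics/Ppat and Gart/Son they were Psmb9/Tap1 and Recql4/Lrrc14, a pair named here after its values were seen.

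The share of gene ends with a window was also counted over all gene ends. An end within 1 kb of another can be credited with the window of its neighbour, so its share is higher by construction, and the values below describe the arrangement with no test of openness. Of 6325 ends with an end of another protein-coding gene within 1 kb, 2948 (46.6%) had a window within 1 kb, against 7631 of 37449 lone ends (20.4%) and 24.2% of all ends. The odds ratio was 3.41 (95% interval 3.14 to 3.70, n = 43774 ends). Split by kind, 79.4% of close starts had a window (2119 of 2668) against 40.5% of lone starts. Close starts had a window most often where the neighbour was also a start, in 89.6% of 1843. Where the nearest other end was a finish, 50.2% of 540 close starts had a window. Finishes followed the neighbour too: 47.4% of 559 finishes next to a start had a window, 1.80% of 1501 next to another finish, and 0.969% of lone finishes. A window near a close end counts for both ends, so the shares of neighbouring ends are not independent.

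**Figure D2:**
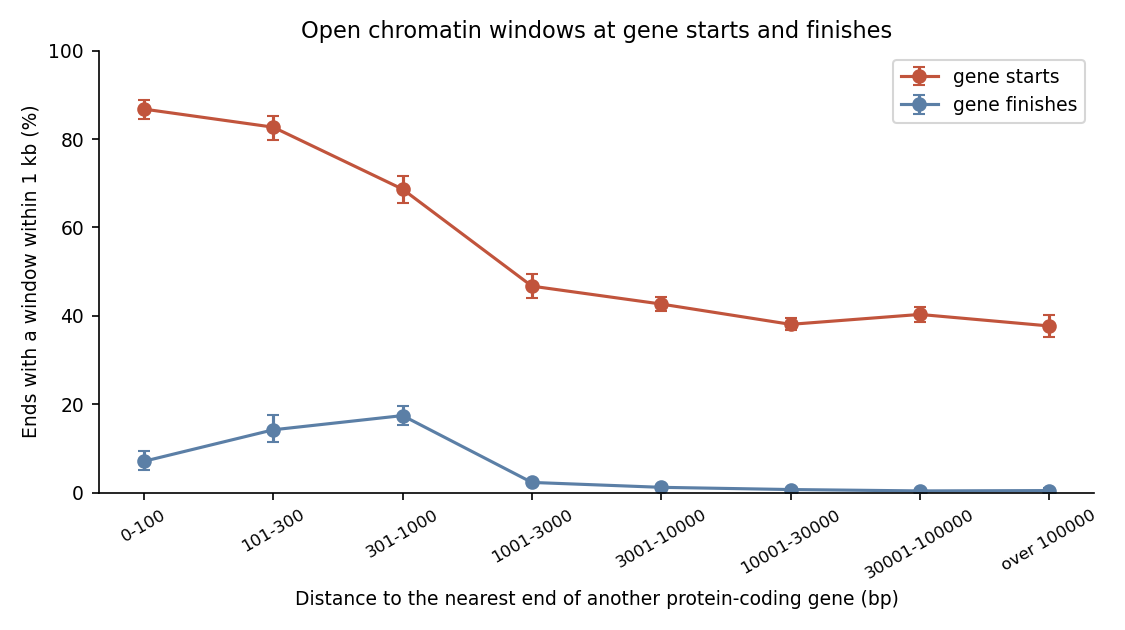
Share of gene starts (red) and gene finishes (blue) with a window within 1 kb (vertical axis, %), by distance to the nearest end of another protein-coding gene (horizontal axis, bp, unequal bins), with exact 95% intervals. Starts fall from 86.8% at up to 100 bp to 68.7% at 301 to 1000 bp and 37.7% beyond 100000 bp, and finishes reach 17.4% at 301 to 1000 bp and stay at 2.29% or less from 1001 bp on.

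The spread over chromosomes was uneven. Shared windows made up 9.53% of the windows near a gene end on chromosome 6, the lowest share, and 22.3% on chromosome 17, the highest, with 21.5% on chromosome 7 and 20.3% on chromosome 19. On chromosome 17, 33.1% of genes had an end of another gene within 1 kb, against 18.3% on chromosome 6.

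Shared windows were poorer in G and C than single windows. Their GC content was 65.4% ± 8.28 (SD, n = 1450 windows), against 68.3% ± 8.01 (n = 7628), a difference of -2.95 percentage points (95% interval -3.43 to -2.46, adjusted p = 1.28e-31). CpG dinucleotides stood at 9.36 ± 3.58 per 100 steps between neighbouring bases, against 10.1 ± 3.89, a difference of -0.76 (95% interval -0.97 to -0.55, adjusted p = 6.03e-12). Both came from linear models across all windows near a gene end, with errors clustered by 1 Mb block and Benjamini-Hochberg adjustment over 5 window comparisons. The p-values measure the spread between windows, which are not biological replicates. With noncoding genes counted as well, the GC difference was -1.28 points and the CpG difference -0.066 (adjusted p = 0.565), so the call on CpG was lost. At the ends of the GC distribution, 10.6% of shared windows had a GC content below 55%, against 5.79% of single windows, and 12.8% against 21.7% had 75% or more. CpG below 5 per 100 steps was found in 8.76% of shared and 9.01% of single windows. The windows near no gene end had 6.22 CpG per 100 steps and a GC content of 60.3%.

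Windows whose divergent starts lay apart were also poorer in G and C than single windows at a start. These 520 windows had a GC content of 63.6% ± 8.40, against 68.4% ± 7.96 in the 6029 single windows known to lie at a start, a difference of -4.82 points (adjusted p = 9.26e-32 in the same model). Their CpG difference was -1.20 per 100 steps. Windows over overlapping starts had a GC content of 66.5% ± 8.54, and their CpG differed from single windows at a start by only -0.019 (95% interval -0.44 to 0.40, adjusted p = 0.929). Along the gap, mean GC was 66.1% in the 140 windows with a gap of at most 50 bp, 63.5% at 51 to 100 bp, 64.0% at 101 to 200 bp and 58.8% in the 56 windows at 201 to 300 bp. It was higher again at wider gaps, with 61.8% in 48 windows at 301 to 500 bp, 62.2% in 29 at 501 to 1000 bp and 60.7% in 3 at 1001 to 2000 bp. These comparisons by arrangement were added after the data were seen, and start-to-start pairs were not tested against each other.

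**Figure D3:**
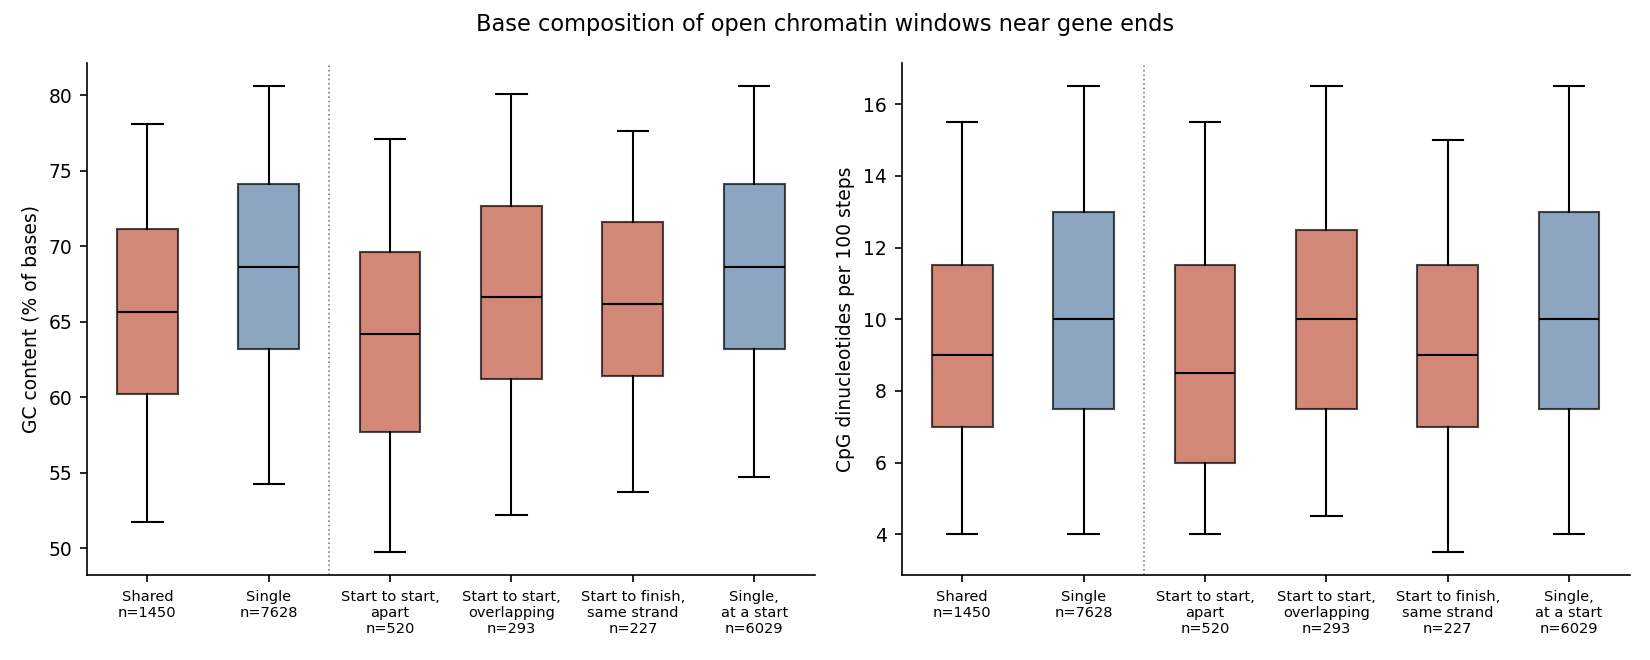
GC content (left, % of bases) and CpG dinucleotides per 100 steps (right) of 201 bp windows, with boxes from the lower to the upper quartile, a line at the median and whiskers from the 5th to the 95th percentile. Shared windows (red) lie below single windows (blue) in both measures, and windows whose 2 starts lie apart lie lowest, with median GC of 64.2% against 68.7% in single windows at a start.

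Individual shared windows spanned a wide range of composition. The highest GC content, 85.1%, was in the window of Ppp1r9a, a scaffold protein of actin filaments, and Gmfg-ps, followed by 84.6% at Bend6 and Dst, the latter a cytoskeletal linker. The lowest, 34.3%, was in a window of 3 genes, Shld3, Trappc13 and Trim23, followed by 35.3% at Rpl4, a ribosomal protein, and Zwilch, a kinetochore protein, and by 35.8% at Uqcr10, a subunit of complex III, and Zmat5. CpG reached 20.5 per 100 steps in 3 windows, among them that of Acaca, the first enzyme of fatty acid synthesis, and Tada2a. The lowest values were 0.5 beside the histone genes H2bc18 and H3c13 and 1.0 beside S100a1 and S100a13, genes of calcium-binding proteins. The window with 24 genes lay in the protocadherin gamma cluster, whose adhesion genes end in common exons, so a single finish counts for many genes there. Windows with 3 genes included Adam15, Dcst1 and Dcst2 (69.7% GC, 2 sites) and BC029722, Eif6 and Mmp24 (60.7% GC, no site).

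The share of windows with a Plagl1 motif site did not differ past the threshold between shared and single windows. A site lay in 469 of 1450 shared windows (32.3%, exact 95% interval 29.9 to 34.8), in 2506 of 7628 single windows (32.9%) and in 32.9% of all windows. The odds ratio was 0.977 (95% interval 0.864 to 1.10, adjusted p = 0.712, logistic model with clustered errors). At equal GC content and CpG it was 1.13 (95% interval 0.996 to 1.28, adjusted p = 0.0979). Neither passed the threshold of 0.05, and the first interval leaves room for a difference of either sign. The second did pass with errors clustered by chromosome (1.13, adjusted p = 0.00137) and with the distance to the nearest end as a covariate (1.16, adjusted p = 0.0335). Clustering by chromosome leaves at most 21 clusters, a small number for errors of this kind, which can then come out too small. The motif score of the best site in a window differed by 0.0149 (95% interval -0.028 to 0.058, adjusted p = 0.614, 469 against 2506 windows). In all, shared windows held 595 sites. Of these windows, 111 (7.66%) had 2 or more sites, against 7.32% of single windows.

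**Figure D4:**
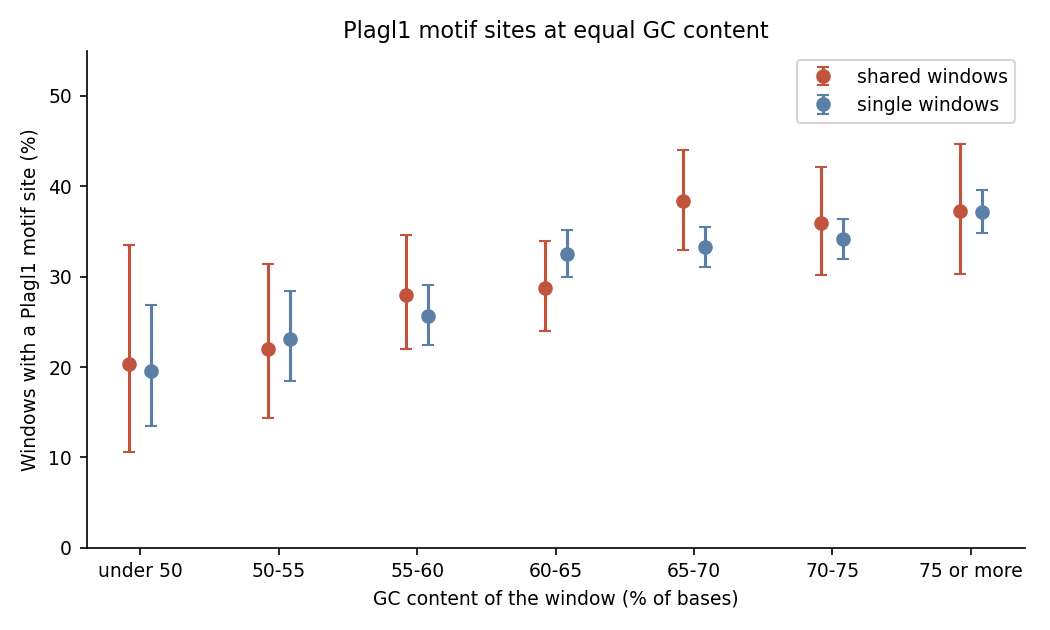
Share of windows with at least 1 Plagl1 motif site (vertical axis, %) by GC content of the window (horizontal axis, % of bases) for shared (red) and single (blue) windows, with exact 95% intervals. The share goes from 20.4% of 54 shared windows under 50% GC to 37.3% of 185 at 75% or more, and the intervals of shared and single windows overlap in each of the 7 bins.

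By arrangement, the shares of shared windows with a site were as follows, and no arrangement was tested against another. Where divergent starts lay apart, 131 of 520 windows (25.2%) had a site, against 33.1% of single windows at a start. The odds ratio was 0.681, with a 95% interval from 0.555 to 0.837 (adjusted p = 0.000434). At equal GC content and CpG the odds ratio was 0.861 (95% interval 0.695 to 1.07, adjusted p = 0.213). Over overlapping starts the share was 31.1% (91 of 293), and beside a start and a finish on the same strand 35.2% (80 of 227). Of the 163 sites in windows with starts apart, 44 (27.0%) lay wholly between the starts. The strand table moves with this result. Shared windows with a strand missing from it held a site in 40.5% of 346 cases, against 29.8% of the 1104 with all strands known, whereas single windows stood at 31.4% and 33.2%. With all strands known, the odds ratio of shared against single windows was 0.854 (adjusted p = 0.0429), and the part of the missing strands in the result was not tested.

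The sites themselves are 10 bp long, and the capitals below mark bases 4 to 10 on the motif strand, where the G-rich core lies. These sequences were printed because they were the most frequent in shared windows or had the highest scores there.
Most frequent: cgcGGGGCCC
Next in frequency: ccgGAGGCCC
Highest score: catGGGGCCC
High score with A at position 5: catGAGGCCC
The most frequent, cgcGGGGCCC, made up 12 of the 595 sites in shared windows (2.02%) and 79 of the 3195 in single windows (2.47%). The next, ccgGAGGCCC, made up 9 sites (1.51%) against 26 (0.81%), as did cctGGGGCTC. At position 5, 46.6% of sites in shared windows had A and 53.4% had G, against 42.6% and 57.4% in single windows. The median score of the sites was 5.93 in both groups of windows. Sites of a window can overlap, and no test was made on single sequences.

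The windows with the strongest or most sites belonged to varied genes. The site with the highest score, 7.61 for catGGGGCCC at chr19:6067912-6067921, lay beside Tm7sf2, a reductase of cholesterol synthesis, and Vps51, a subunit of a tethering complex of the Golgi. Next came taaGGGGCCC with 7.55 at Abce1, a ribosome recycling factor, and Anapc10, a subunit of the anaphase-promoting complex, which overlap by 5 bp. The sequence catGAGGCCC, with 7.54, lay at Aldoc and Pigs and again at Nt5c1b and Rdh14, in both cases beside a start and the finish of the gene before it. A score of 7.52 was found at Arl16 and Hgs, whose starts lie 4 bp apart. The largest number of sites, 4, was found at Ddb1/Tkfc and at Ssrp1 and P2rx3, a histone chaperone and an ion channel gated by ATP. The 4 sites at Ssrp1 had scores from 5.52 to 6.33, and the 4 at Ddb1 from 5.53 to 6.82. Windows with 3 sites included Cep170/Sdccag8, both genes of centrosome proteins, Phf13/Thap3 and Cnpy4/Mblac1.

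The promoters at shared windows differed from those at single windows in the letters of some known motifs. One 300-base RefSeq promoter per window (250 bases before the start and 50 after it, the promoter with the start nearest to the midpoint) was searched on both strands for 8 motifs. Divergent starts that lie apart have a median gap of 98 bp, so these bases often take in the other gene's start as well. A promoter at a shared window can thus cover 2 starts, and the part of this in the differences below was not tested. CCGGAAG, a core bound by ETS factors, was found in 29.1% of 1256 promoters at shared windows and 18.6% of 5870 at single windows at a start, against 11.8% of all 17492 promoters (odds ratio 1.79, 95% interval 1.56 to 2.06, adjusted p = 9.33e-16). ATGGCGG, the letters of YY1 sites, was found in 12.9% against 8.55%, and in 5.34% of all (odds ratio 1.58, 95% interval 1.32 to 1.90, adjusted p = 3.95e-06). TGACGT, part of the cAMP response element, was found in 15.5% against 12.8%, and in 8.59% of all (odds ratio 1.25, 95% interval 1.05 to 1.48, adjusted p = 0.0278). All 3 passed also at equal GC content of the promoter, with odds ratios of 1.78, 1.58 and 1.24. Where divergent starts lay apart, the ETS letters stood at 30.5% and the YY1 letters at 15.3% of 518 promoters, and both passed against single windows (adjusted p = 8.96e-10 and 8.67e-07). The response element stood at 16.2% there (adjusted p = 0.0821).

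The other 5 motifs did not pass. The GC box GGGCGG was in 72.1% of promoters at shared windows and 73.8% at single windows, against 45.9% of all. CCAAT was in 41.2% and 40.6%, against 39.2% of all, and the core of the NRF1 site, GCATGCG, in 7.88% and 7.55%, against 4.5% of all. The E-box CACGTG was in 11.5% and 10.8%, against 7.8% of all. The TATA box TATAAA was in 4.86% and 5.83%, against 13.4% of all (odds ratio 0.825, 95% interval 0.602 to 1.13, adjusted p = 0.410). A match is a run of letters and not a bound site. ATGGCGG can overlap the GC box GGGCGG by its last letters, and no other overlap between motifs was checked.

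By gene function, shared windows were found at many genes of DNA maintenance and mitochondria and at few of the listed genes of tooth development. A window was found at an end of 10205 of the 21887 protein-coding genes (46.6%), and of these 2834 (27.8%) had a shared window. An end of another gene within 1 kb was found for 24.8% of all genes, and of the genes with such a close end 51.2% had a shared window. Of the 10205 genes with a window, 3868 had a close end. Genes were grouped in 35 lists, some of which overlap, and the counts below carry no test.

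Among genes of DNA and chromatin, 38 of 70 DNA repair genes with a window (54.3%) shared it, and 63.2% of the 76 genes of the list had a close end. Alkbh2 and Ung, which remove alkyl groups and uracil from DNA, shared a window of 66.2% GC over the 868 bp in which the genes overlap. Apex1, the endonuclease of base excision repair, lay 55 bp from Osgep, an enzyme of tRNA modification, in a window of 62.2% GC with 2 sites. Of the 29 two-gene windows at repair genes with known strands, 28 were start to start. Of 45 replication genes with a window, 17 (37.8%) shared it. They included Pcna, the sliding clamp, which lies 157 bp from Cds2 in a window of 59.7% GC with 2 sites, and Pold1, the catalytic subunit of a replicative polymerase, whose start lies beside the finish of Nr1h2.

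Histone genes had the highest share of any list, 36 of 59 (61.0%). A close end was found for 46.1% of all 102 genes of the list and for 36 of the 59 with a window. In 18 of their 20 shared windows both neighbours were histone genes. Median GC in the 20 windows was 50.2%, against 65.7% in all shared windows, and median CpG 5.25 per 100 steps. In 7 windows an H2A and an H2B gene lay start to start with a median gap of 179 bp, among them H2ac11/H2bc11 (40.3% GC, gap 248 bp) and H2ac12/H2bc12 (45.3% GC, gap 177 bp). A site lay in 3 of these 7 windows and in 4 of all 20 (20.0%), against 32.3% of all shared windows. Those of H2ac11/H2bc11 and H2ac12/H2bc12 were aaaGAGGCCT with a score of 6.72 and aagGAGGCCC with 6.98. Near-identical copies of histone genes limit how well reads can be placed there.

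Genes of mitochondria often shared their windows. Of 69 genes of the mitochondrial ribosome with a window, 36 (52.2%) shared it, and 56.4% of the list had a close end. Mrpl46 and Mrps11 shared a window with each other (chr7:78783007-78783207). Their starts lie 41 bp apart, the midpoint lies 3 bp from the centre of the gap, and the window had 59.7% GC and 1 site, catGAGGCAA. Of 72 respiratory chain genes with a window, 35 (48.6%) shared it, including Ndufa1 with Rnf113a1 and Atp5j with Gabpa, an ETS factor that is known to act on genes of mitochondria. Respiratory chain windows had a median GC of 60.7%, and 19 of 26 two-gene windows with known strands belonged to start-to-start pairs with starts apart. Among tRNA synthetases, 14 of 33 (42.4%) shared a window, and the cytosolic and mitochondrial histidine enzymes Hars and Hars2 shared one with each other.

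Among genes of RNA and protein handling the shares varied. Splicing factors shared a window in 23 of 50 cases (46.0%). Hnrnpa2b1 lay 105 bp from Cbx3 and Hnrnpa1 lay 38 bp from Cbx5, so a pair of related RNA-binding proteins each faced a heterochromatin protein. A Plagl1 motif site lay in 2 of the 24 splicing windows (8.33%), against 32.3% of all shared windows. Over the lists with at least 10 shared windows this share ran from 8.33%, which cilium genes had too, to 43.6% for Tmem genes, and no list was tested. For RNA polymerase subunits and their general factors the count was 33 of 95 (34.7%). A site lay in 12 of their 33 shared windows (36.4%), with 2 sites in the windows of Polr1d and Polr3c each and 3 at Taf6l/Tmem179b. Chaperones shared a window in 23 of 65 cases (35.4%), among them the heat shock genes Hspa1a and Hspa1l, 546 bp apart. The proteasome, with 12 of 42 (28.6%), the cytosolic ribosome, with 20 of 76 (26.3%), and translation initiation factors, with 12 of 47 (25.5%), were near the background of 27.8%. Initiation factors stood there although 48.2% of the list, and 22 of the 47 genes with a window, had a close end. Ribosomal genes with a shared window included Rpl35a beside Iqcg, Rpl15 beside Nkiras1 and Rpl19 beside Cacnb1.

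Genes of membranes and cell structure were mixed. Tmem genes, named only for a transmembrane domain, shared a window in 52 of 138 cases (37.7%), genes of vesicle traffic in 42 of 119 (35.3%) and kinesins in 12 of 34 (35.3%). Vps26b, a retromer subunit, lay 70 bp from Ncapd3, a condensin subunit, in a window with 2 sites, and the start of Kif15 lay 80 bp from that of 1110059G10Rik. Cilium genes, with 12 of 45 (26.7%), and solute carriers, with 40 of 174 (23.0%), stood near the background. Among cilium genes, Bbs12 lay 100 bp from Cetn4 and Cep290 lay 182 bp from Tmtc3. Of collagens, 4 of 13 shared a window, Col4a1 and Col4a2 with each other and Col11a2 and Col23a1 with a neighbour on the same strand.

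Fewer shared windows were found at zinc finger genes of the Zfp series, 36 of 271 (13.3%). A close end was found for 14.6% of the 397 Zfp genes listed and for 43 of the 271. The count was 9 of 75 at ubiquitin conjugation genes, with 23.0% close ends over the whole list. It was 5 of 38 (13.2%) at cell cycle drivers, although 31.8% of the list and 11 of these 38 had a close end. These 5 windows included subunits of the anaphase-promoting complex, namely Anapc10, Anapc11, Anapc13 and Anapc2. SWI/SNF genes, whose complex includes the Arid1a protein, shared a window in 5 of 22 cases (22.7%). Brd9 lay 5 bp from Trip13 and Smarcd2 lay 21 bp from Tcam1.

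**Figure D5:**
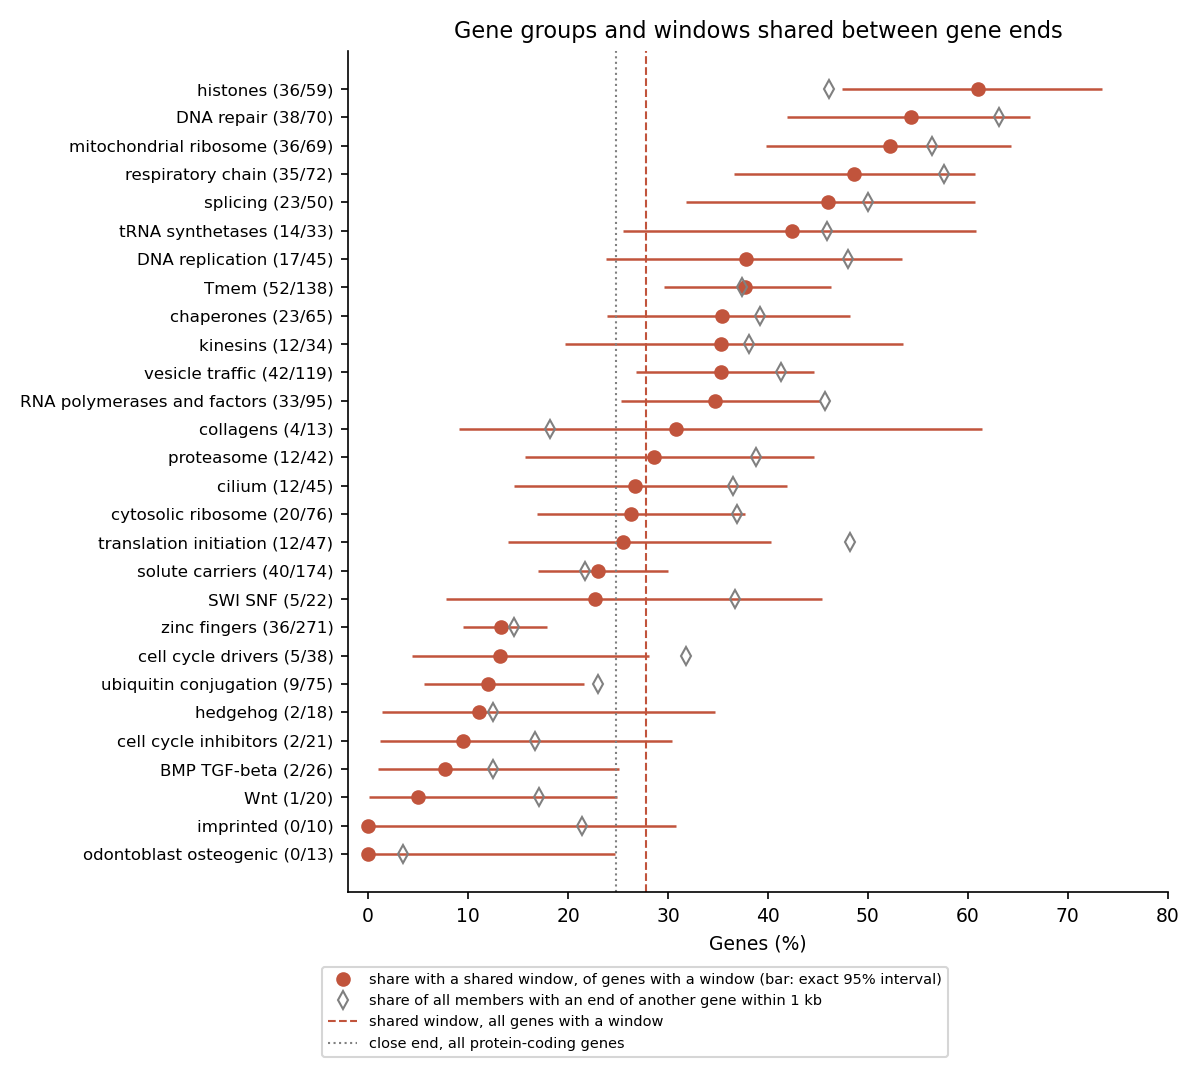
For each list with at least 10 genes near a window, the share of those genes that share it (red points, exact 95% intervals for counting error only) and the share of all list members with an end of another gene within 1 kb (grey diamonds), in % of genes. Histones (61.0%) and DNA repair (54.3%) lie above the dashed line for all genes with a window (27.8%), and zinc fingers (13.3%) lie below it.

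Genes of tooth development and its signals had few shared windows, and the lists are small. The background was 27.8%. The exact 95% interval reached 34.7% for hedgehog genes, 30.4% for cell cycle inhibitors, 30.8% for imprinted genes and 52.2% for Hox and Dlx genes. It ended below the background for BMP and TGF-beta genes (25.1%), Wnt genes (24.9%) and odontoblast and bone genes (24.7%). These intervals cover counting error only, and no list was tested. Of 18 hedgehog pathway genes with a window 2 shared it (11.1%): Dhh, a ligand, and Gpr161, a receptor of the cilium that restrains the pathway, and neither window held a Plagl1 motif site. The midpoint lay 304 bp from the finish of Dhh, nearer to Rhebl1, and 917 bp from the start of Gpr161, nearer to Tiprl. Of 26 BMP and TGF-beta genes 2 shared a window (7.69%). These were the ligand Tgfb1, at its start, with the finish of B9d2 (76.1% GC, 2 sites) and the receptor Acvr1 with Upp2 (73.6% GC, no site). Of 20 Wnt genes 1 shared a window, the receptor Fzd4 with Tmem135. Among 21 cell cycle inhibitors 2 did, Cdkn2d with Kri1 and E2f4 with Exoc3l, and neither held a site. The first of these windows lay 511 bp from the finish of Cdkn2d and 21 bp from the start of Kri1. None of the 13 odontoblast and bone genes with a window, of the 10 imprinted genes or of the 5 Hox and Dlx genes shared one. Close ends were also few in these lists, with 3.45% of odontoblast and bone genes and 12.5% each of hedgehog and of BMP and TGF-beta genes, but 21.4% of imprinted genes.

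The study's own genes had no shared window. Plagl1 had a window near an end, and the nearest end of another protein-coding gene, Zc2hc1b, lay 17950 bp away. Arid1a had no window near an end, and its nearest neighbour Pigv lay at 5013 bp. Gli1, a target and effector of hedgehog signals, had an end 65 bp from an end of Arhgap9, and neither of the Gli1 ends had a window. As a check of the tissue, windows lay at ends of 13 of 29 odontoblast and bone genes (44.8%) and 8 of 20 genes of the dental mesenchyme (40.0%), both below the 46.6% of all protein-coding genes. They lay at ends of 1 of 16 each for dental epithelium and immune cells, 3 of 13 for endothelium and 4 of 15 for glia and neurons. Pdgfrb, a growth factor receptor of the mesenchyme, was among the marker genes with a shared window.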

How the data were processed

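ATAC-seq windows of 3 libraries, deposited as 1 pooled list, were analysed. The submitters' processing notes name Bowtie2 2.3.5, MACS2 2.1.1 and edgeR, with mm10 as the genome. Per the file headers, HOMER annotated a union list of peaks in windows of 201 bp. The deposited GC and CpG values are fractions, given here as percent and per 100 steps. The deposited score of a site is HOMER's log-odds score, and its log base is not stated. Genes and promoters came from RefSeq GRCm38.p6, the assembly behind mm10. A gene end is either outer border of a gene, and starts and finishes were told apart with the strand of the promoter table.

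Linear and logistic models with errors clustered by 1 Mb block (statsmodels 0.14.6) were fitted across all windows near a gene end, and Benjamini-Hochberg adjustment covered the 5 window comparisons. The models were tested on simulated data. The promoter motif models were added after the data were seen and adjusted over the 8 motifs. Exact intervals are Clopper-Pearson and cover counting error only. The windows and gene lists were chosen with earlier results of these data known. Named were the study's genes, the first 8 known pairs with a shared window, the windows with most genes, most sites, highest scores and extreme composition, and up to 4 genes per list, except a few that are not reported here. Alternatives changed the distance, gene set, clustering, covariates and window choice.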

Additional observations from a re-analysis of the deposited data

How the results depend on the processing

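Over 12 alternatives the GC difference stayed below 0, from -4.82 to -1.28. With all annotated genes, noncoding ones included, 2725 windows were shared, the CpG difference was -0.066 (adjusted p = 0.565), and the odds ratio of a site at equal GC and CpG was 0.981. With errors clustered by chromosome, and so at most 21 clusters, that odds ratio, 1.13, passed the threshold (adjusted p = 0.00137). With the distance to the nearest end as a covariate it was 1.16 (adjusted p = 0.0335), and the plain odds ratio was 1.02. With sites at or above the median score the plain odds ratio was 1.02. The following were added after seeing the data. For starts apart against single windows at a start the plain odds ratio was 0.681 and that at equal GC and CpG 0.861. For overlapping starts the CpG difference was -0.019 and that of the best score -0.057. For start to finish and finish to finish windows the plain odds ratio was 1.16. With all strands known it was 0.854, and the score difference was -0.00024. The cause of these changes was not tested. The odds ratio of close against lone ends ran from 3.04 to 6.15 over 5 alternatives. No paired analysis was possible because only 1 library was mutant and the deposited windows carry no value per library. Depth per library is unknown, so windows missing from the list were not told apart from windows missed at low depth.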
